A study of Mus musculus with 37 samples.

Results

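The 40 genes described here are Zfp57 and 39 imprinted genes of the mouse, chosen by name as known members of imprinted clusters. The choice did not use a threshold on their values, but it was made with earlier results of these data known. All 40 were among the 48795 genes of the count table, and 38 of them were among the 16799 genes with enough reads to be tested. Their RNA was measured in the hippocampus of 3 Kdm1a-ifKO mice and 3 control littermates, with 1 library per mouse. Kdm1a-ifKO mice carried Kdm1a alleles with loxP sites (Kdm1a f/f) and a tamoxifen-inducible Cre under the Camk2a promoter, which acts in excitatory neurons of the adult forebrain, so the other cells of the tissue kept the gene. The controls were littermates without the Cre, also given tamoxifen, and both groups were on a C57BL/6J background. The ages at sampling of the RNA were not given in the sources used here. Contacts of chromatin came from 1 CTCF ChIA-PET library, a map of DNA ends joined at sites bound by CTCF, made from sorted nuclei of hippocampal excitatory neurons. Per the study's methods these nuclei came from Camk2a-creERT2 x CAG-Sun1/sfGFP reporter mice given tamoxifen, which carry the Cre and a nuclear fluorescent tag and which the labels call WT, so they are not the littermate controls of the RNA. Loops were not compared between genotypes.

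Imprinted genes are transcribed mainly from the copy inherited from one parent. They lie in clusters governed by imprinting control regions, which carry DNA methylation on a single parental copy from the germ line onwards. ZFP57 is a zinc finger protein that binds the methylated copy at the hexamer TGCCGC and recruits TRIM28 and the histone methyltransferase SETDB1, which keeps the methylation in place in the early embryo. Kdm1a (LSD1) removes methyl groups from lysine 4 of histone H3. The counts do not separate maternal from paternal transcripts, so every value below is the sum of both copies.

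Library totals ran from 18985542 to 19469947 counts. Kdm1a was at 79.5, 81.1 and 79.6 CPM (counts scaled to a fixed library total) in the controls and 39.3, 36.9 and 38.4 CPM in Kdm1a-ifKO (log2FC -1.07, adjusted p = 6.24e-08), which matched the labels. Throughout, log2FC is the fitted difference of Kdm1a-ifKO from control, and adjusted p is the Benjamini-Hochberg value, over all tested genes, of the quasi-likelihood test of edgeR, with a threshold of 0.05. Summed markers of excitatory neurons lay at 6250 to 6530 CPM in the controls and 6170 to 6820 CPM in Kdm1a-ifKO. Most of this sum is Camk2a, and Neurod6, a transcription factor of these neurons, fell from 194, 204 and 211 CPM to 174, 146 and 155 CPM (log2FC -0.36, adjusted p = 0.00419). Camk2a (log2FC 0.05), Slc17a7 (0.09) and Prox1 (-0.05), the other markers in the sum, did not pass the test. Summed interneuron markers lay at 763 to 822 CPM in the controls and 732 to 766 CPM in Kdm1a-ifKO. Among them Vip fell (log2FC -0.46, adjusted p = 0.0122), whereas Sst was slightly higher in all Kdm1a-ifKO libraries (log2FC 0.07, adjusted p = 0.447). Pvalb (log2FC -0.23), Gad2 (-0.16) and Gad1 (-0.09) did not pass the test. Summed astrocyte markers were higher in all Kdm1a-ifKO libraries (1350 to 1480 against 1630 to 1800 CPM), as were summed microglial markers (222 to 245 against 256 to 317 CPM). Of the astrocyte markers Slc1a3 passed the test (log2FC 0.22, adjusted p = 0.0161), Gfap did not, and the groups overlapped for Aqp4 and Aldh1l1. Of the microglial markers Csf1r, Cx3cr1 and Tmem119 rose and passed the test, and the groups overlapped for P2ry12. The part of these cell types in the results below was not tested, and in whole tissue fewer cells of a type and less RNA per cell cannot be told apart.

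Of the 38 tested genes, 6 passed the test (15.8%, beside 8.85% of all tested genes). Of these, 2 rose in Kdm1a-ifKO (5.26%, beside 6.04%) and 4 fell (10.5%, beside 2.82%). Both rises had a log2FC over 0.5 (beside 3.15% of all tested genes) and 1 was over 1 (beside 1.36%), whereas none of the falls was under -0.5 (beside 0.28%) or under -1 (beside 0.0655%). Zfp57 and Cdkn1c rose, and Snrpn, Peg13, Nap1l5 and Inpp5f fell. The 4 that fell had mean control levels of 134 to 448 CPM. The shares of all tested genes were not matched for level. The falls were small, and the number of genes that fell depended on the libraries used: it ranged from 0, without Kdm1a-ifKO replicate 3, to 6 when single libraries were left out, and it was 1 when control replicate 2 was left out and again 1 when Kdm1a-ifKO replicate 1 was. The groups did not overlap in CPM for 12 genes (31.6%, beside 30.0% of all tested genes), 3 of them higher (beside 15.7%) and 9 lower (beside 14.4%). The median log2FC of the 38 genes was -0.06, beside -0.0034 over all tested genes. Of the 32 genes that did not pass the test, 22 had a 95% interval of the log2FC that lay wholly within 0.5 of 0.

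**Figure D1:**
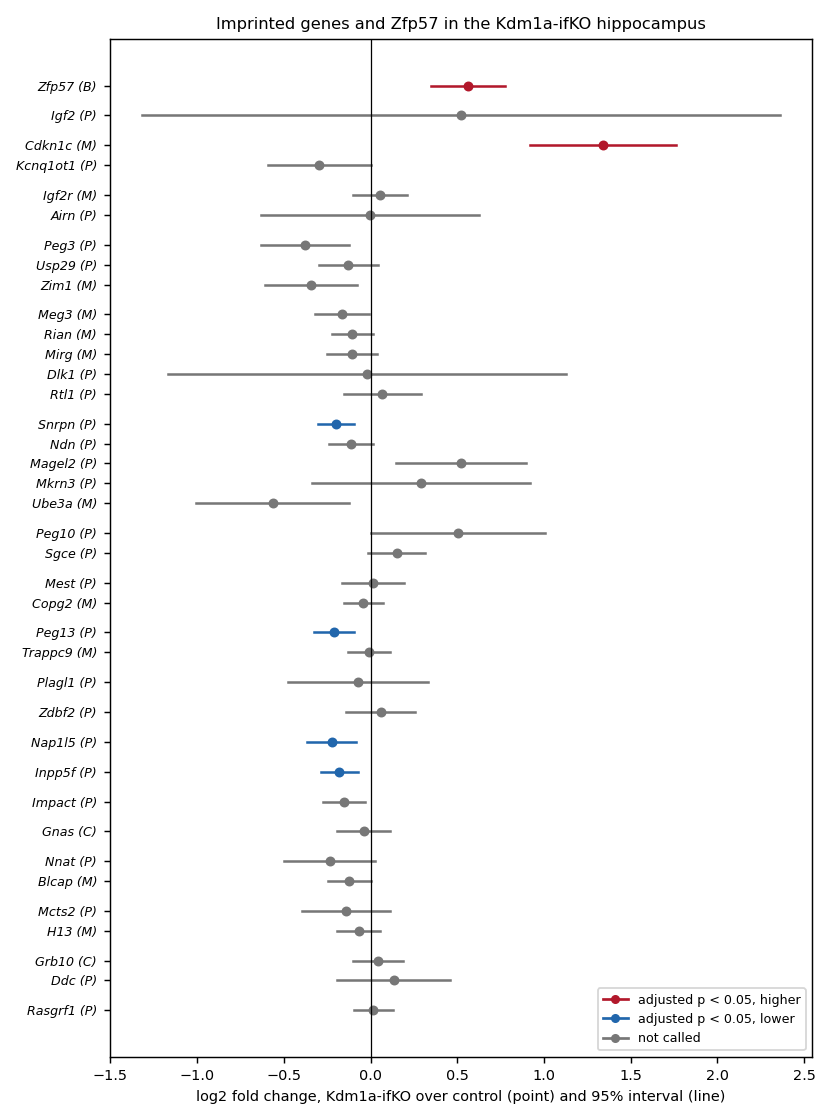
Log2FC of Kdm1a-ifKO against control for the 38 tested genes, grouped by cluster, with bars for the 95% interval. The letters M, P, C and B give the maternal, paternal, complex or biallelic expression listed for each gene, which was not measured here. Cdkn1c (1.34) and Zfp57 (0.56) lie to the right of 0, the 4 genes that fell lie between -0.22 and -0.18, and the bars of Igf2 and Dlk1 are the widest.

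The genes differed widely in level in control hippocampus. On a scale per length (TPM, counts divided by exon length and scaled to a fixed total), 10 genes exceeded 100, 17 lay from 10 to 100, 10 from 1 to 10 and 3 under 1. Meg3, a long noncoding RNA, had the highest level with 1270 ± 74.7 TPM (SD, n = 3), and Snrpn, a protein of the splicing machinery of neurons, came next with 825 ± 10.6 TPM. Nnat (651 ± 63.4 TPM), Nap1l5 (532 ± 39.3 TPM), Rasgrf1 (275 ± 5.01 TPM) and Ndn (241 ± 17.5 TPM) followed, and the control libraries of neighbours in this order did not overlap. Ndn and Peg13 (232 ± 12.6 TPM) did overlap. Zfp57 stood at rank 25 with 13.2 ± 1.52 TPM and overlapped both of its neighbours, Peg10 and Ube3a. Cdkn1c stood at rank 34 with 2.92 ± 0.314 TPM.

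Zfp57 (ENSMUSG00000036036, chr17:37001163-37010635 of GRCm38, plus strand) was at 11.9, 14.2 and 11.6 CPM in the controls and 17.6, 18.0 and 20 CPM in Kdm1a-ifKO. Every Kdm1a-ifKO library lay above every control library. The rise was 1.47-fold (12.6 ± 1.44 against 18.5 ± 1.3 CPM, SD, n = 3), with a log2FC of 0.56 (SE 0.0995, 95% interval 0.35 to 0.78, adjusted p = 0.00323 by edgeR). When single libraries were left out the log2FC stayed between 0.50 and 0.65 and the adjusted p between 0.00194 and 0.0168.

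The 250 bases before the annotated start of Zfp57 are shown because Zfp57 is the regulator among the 40 genes and rose. They come from the RefSeq GRCm38.p6 genome, chr17:37000913-37001162, plus strand, with the 6 CpG dinucleotides in capitals. The hexamer that ZFP57 binds was absent on both strands from the 3 promoter windows of its own gene.
Zfp57 upstream: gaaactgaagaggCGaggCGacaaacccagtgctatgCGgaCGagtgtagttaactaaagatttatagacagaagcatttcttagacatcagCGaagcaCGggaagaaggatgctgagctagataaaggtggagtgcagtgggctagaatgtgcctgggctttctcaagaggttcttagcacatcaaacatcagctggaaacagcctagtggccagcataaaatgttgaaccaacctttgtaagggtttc

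Its tested neighbours behaved differently from each other. H2-M5, a nonclassical class I histocompatibility gene 11.6 kb upstream, was at 1.62, 1.68 and 2.26 CPM in the controls and 3.34, 2.79 and 3.23 CPM in Kdm1a-ifKO (log2FC 0.75, adjusted p = 0.0353 by edgeR). That call was lost without control replicate 1 (0.0963), control replicate 2 (0.0997), Kdm1a-ifKO replicate 1 (0.111) or Kdm1a-ifKO replicate 3 (0.101), and with DESeq2 (0.107). Mog, a myelin gene 0.108 kb downstream of Zfp57 on the other strand, had overlapping groups (log2FC -0.05, adjusted p = 0.83). A single loop had an anchor within 10 kb of Zfp57, 3023 bases from the gene, with 4 paired-end tags (PETs, the read pairs that join both anchors) over 83.7 kb, whereas 15 loops spanned the gene.

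Cdkn1c encodes p57Kip2, an inhibitor of cyclin-dependent kinases expressed from the maternal copy. It had the largest rise of the 38 genes, from 1.31, 1.58 and 1.61 CPM (25, 30 and 30 counts) to 3.6, 4.31 and 3.49 CPM (70, 85 and 68 counts). The groups lay far apart. The rise was 2.53-fold (log2FC 1.34, SE 0.195, 95% interval 0.92 to 1.76, adjusted p = 0.000721 by edgeR), and it passed the test without any single library (log2FC 1.24 to 1.4). The gene lies at chr7:143458339-143461050, minus strand, and shares 625 exonic bases with the antisense gene Gm44732, whose reads cannot be told apart from its own if strand was not used in counting.

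Kcnq1ot1, the paternally expressed noncoding RNA that silences the Cdkn1c domain in cis, was at 11.6, 10.9 and 16.0 CPM in the controls and 10.1, 10.5 and 10.7 CPM in Kdm1a-ifKO. The groups did not overlap, and the difference did not pass the test (log2FC -0.29, 95% interval -0.59 to 0.0001, adjusted p = 0.205 by edgeR). Control replicate 3 lay above the other controls, and without it the log2FC was -0.10 (adjusted p = 0.664 by edgeR). Phlda2, a placental growth regulator of the same cluster, had 0 counts in every control library and 2, 0 and 3 counts in Kdm1a-ifKO. In a single library 0 reads leave up to 3 counts possible, and no Kdm1a-ifKO library exceeded that limit. The limit does not cover the sums over libraries, 0 against 5 counts. Phlda2 did not enter the test.

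**Figure D2:**
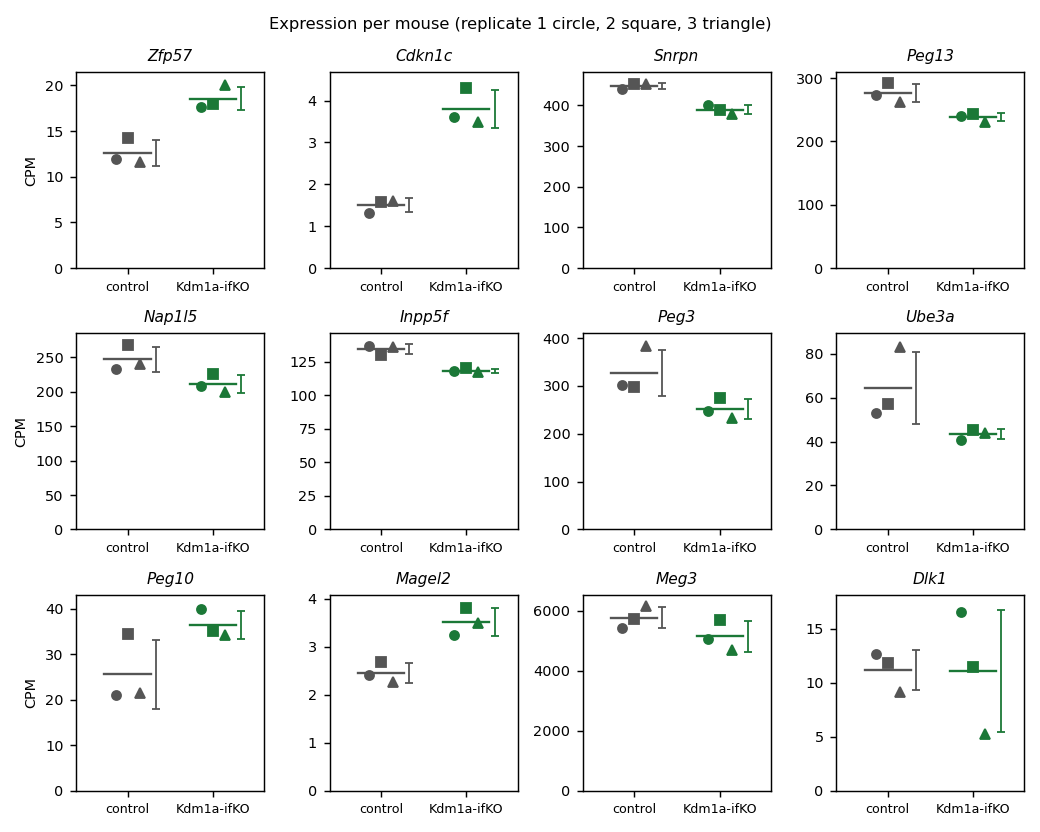
CPM per library for 12 genes, with circles, squares and triangles for replicates 1, 2 and 3, a line for the mean and a bar for the SD. The control and Kdm1a-ifKO points of Zfp57 and Cdkn1c do not overlap, and the replicate 3 control lies apart from the other controls for Ube3a (82.9 CPM) and Peg3 (383 CPM).

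Cdkn1c also lay at one of the strongest CTCF loops of the library. Of its 10 loops, the strongest joined chr7:143145820-143160785 and chr7:143459893-143476067 with 464 PETs over 314.7 kb. It ranked 5 among 27786 loops, and 0.018% of all loops were at least as strong. Kcnq1ot1 lies between its anchors and had no anchor within 10 kb. Phlda2 had 5 loops of at most 8 PETs, and loops of 5 and 3 PETs joined its surroundings to those of Cdkn1c.

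Igf2, a growth factor expressed from the paternal copy in most tissues, gave the widest spread. It was at 33.7, 24.5 and 38.0 CPM in the controls and 20.5, 88.6 and 28.8 CPM in Kdm1a-ifKO. Replicate 2 of Kdm1a-ifKO lay above all other libraries, and the other two Kdm1a-ifKO libraries lay within or below the range of the controls. The log2FC was 0.52 (95% interval -1.32 to 2.36, adjusted p = 0.71 by edgeR) and turned to -0.38 without Kdm1a-ifKO replicate 2. In that library all 8 of 8 leptomeningeal and fibroblast markers were also at their highest, and their summed level was 175 CPM, against 103 and 62.1 CPM in the other Kdm1a-ifKO libraries and 95.6 to 113 CPM in the controls. Summed endothelial markers were highest there too (225 CPM, against 183 and 194 CPM in the other Kdm1a-ifKO libraries and 185 to 200 CPM in the controls). Of the choroid plexus markers Kcnj13 alone was highest there (12 counts), and Ttr was at 6.24 CPM, between 3.29 and 8.16 CPM in the other Kdm1a-ifKO libraries. The part of these cells in the Igf2 level was not tested.

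**Figure D3:**
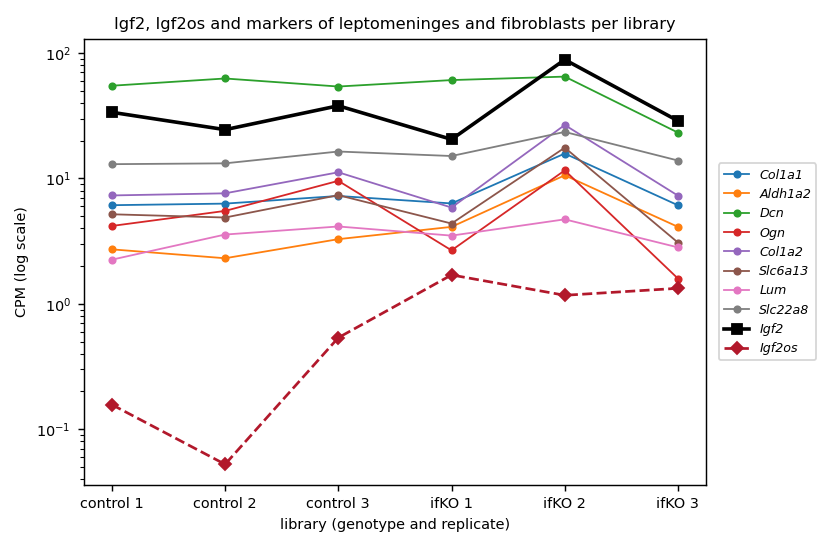
Igf2, Igf2os and leptomeningeal and fibroblast markers in CPM (log axis) in each of the 6 libraries. Igf2 is at 88.6 CPM in Kdm1a-ifKO replicate 2, the library in which all 8 markers are highest.

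H19, the maternally expressed noncoding RNA that shares enhancers with Igf2, had 0 counts in every control and 1, 0 and 3 counts in Kdm1a-ifKO. No library exceeded the same limit of 3 counts per library, and the sums were 0 and 4. H19 did not enter the test. Igf2os, a noncoding RNA antisense to Igf2 at chr7:142659693-142670356, rose from 3, 1 and 10 counts to 33, 23 and 26 counts. All Kdm1a-ifKO libraries lay above the controls (log2FC 2.47, SE 0.486, adjusted p = 0.00748 by edgeR). Without single libraries its log2FC ranged from 2.0 to 3.66, the latter without control replicate 3, with adjusted p up to 0.0398. It overlaps 98 exonic bases of Igf2.

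The region between H19 and Igf2 is where CTCF binding is best known to govern imprinting. CTCF binds the unmethylated maternal copy of the control region upstream of H19 and insulates Igf2 from the enhancers. The control region is shown because H19 loops end there. The core searched, on both strands in GRCm38, was the form of the CTCF motif known from this region, so its presence there is no finding. It occurred at 3 places in the H19 side anchors (chr7:142578595-142582745), all on the minus strand, each printed with the 14 bases of the core in capitals.
chr7:142580301-142580330: agacgatgCCGCGTGGTGGCAGtacaatac
chr7:142580756-142580785: ggatgctaCCGCGCGGTGGCAGcatactcc
chr7:142582026-142582055: gggagttgCCGCGTGGTGGCAGcaaaatcg

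The same core was present in 28 of 55480 anchors of the library (0.0505%) and in 9 of 290 anchors of loops near the 40 genes (3.1%), and all 9 were on the H19 side. It was absent from the Igf2 side anchor of the strongest Igf2 loop and from both anchors of the strongest Cdkn1c loop. A match describes the letters only, and the absence of a match says nothing of CTCF there.

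H19 had 10 loops and Igf2 had 19. The strongest loop of Igf2 had 143 PETs over 66.6 kb, and the strongest of H19 had 31 PETs over 246.1 kb. A single loop of 3 PETs over 93.1 kb joined both surroundings directly. Both genes reached shared regions: near Ifitm10 at chr7:142333081-142336181, 1 loop of 31 PETs came from H19 and 3 loops with 37 PETs in all from Igf2. Near Mrpl23 at chr7:142534384-142539516, 2 loops with 8 PETs in all came from H19 and 4 with 29 PETs in all from Igf2. PETs were not separated by parental copy, so whether these loops lie on the same copy is not known.

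**Figure D4:**
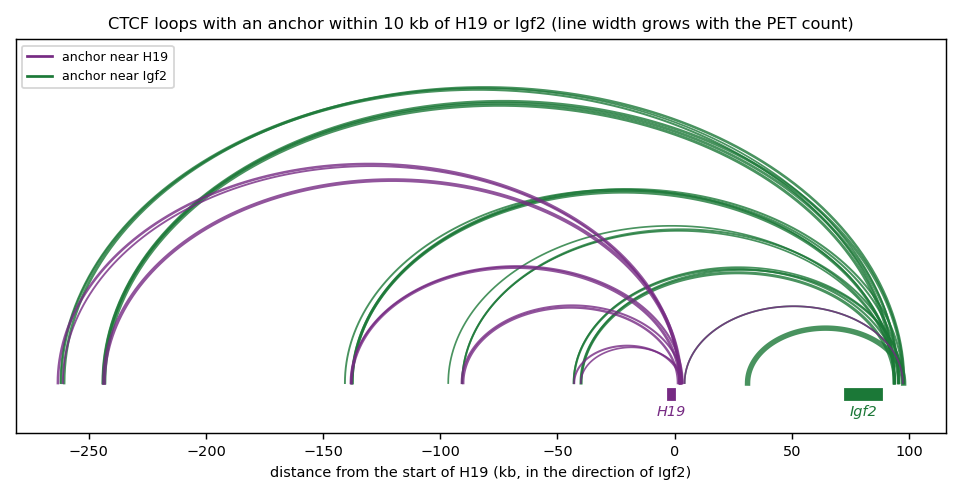
CTCF loops near H19 and Igf2 in sorted neurons of the reporter mice, drawn as arcs by distance from the H19 start in kb. The strongest arc is the loop of 143 PETs at Igf2, and arcs from both genes end in shared regions beyond H19.

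The 4 genes that fell are all listed as expressed from the paternal copy. Snrpn was at 440, 452 and 453 CPM in the controls and 401, 390 and 379 CPM in Kdm1a-ifKO (log2FC -0.20, SE 0.0472, adjusted p = 0.0191 by edgeR). Peg13, a noncoding RNA within an intron of Trappc9, was at 274, 292 and 263 CPM and then 240, 243 and 231 CPM (log2FC -0.21, SE 0.0532, adjusted p = 0.0248). The groups did not overlap for either gene. Nap1l5, of the nucleosome assembly protein family, was at 233, 268 and 241 CPM and then 209, 226 and 199 CPM (log2FC -0.22, SE 0.065, adjusted p = 0.0491). Inpp5f, a phosphoinositide phosphatase, was at 137, 130 and 136 CPM and then 118, 120 and 117 CPM (log2FC -0.18, SE 0.0495, adjusted p = 0.0383). Here too the groups did not overlap.

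Each of these calls was lost when some single libraries were left out. Snrpn lost it without control replicate 2 (adjusted p = 0.0745) or Kdm1a-ifKO replicate 3 (0.124). Peg13 lost it without control replicate 1 (0.0521), control replicate 2 (0.117), Kdm1a-ifKO replicate 1 (0.0753) or Kdm1a-ifKO replicate 3 (0.13), and Nap1l5 without control replicate 2 (0.172), control replicate 3 (0.0613), Kdm1a-ifKO replicate 1 (0.146) or Kdm1a-ifKO replicate 3 (0.2). Inpp5f lost it without any one of the 6 libraries (0.0518 to 0.152). Some reads of these genes may be shared: Snrpn shares 589 exonic bases with Gm38393 and 216 with Snurf on its strand, Inpp5f shares 284 with a pseudogene, and Nap1l5 lies inside Herc3 on the other strand.

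The hexamer TGCCGC is shown for the genes that fell and hold it in a promoter window. Nap1l5 holds it 2 times in its window, and Snrpn once, in 1 of its 4 windows (chr7:60005150-60005449). Inpp5f, which also fell, has 0 matches in its window, and there was no window here for Peg13 or Cdkn1c. It was searched on both strands in RefSeq promoter windows of GRCm38.p6, which run from 250 bases before to 50 after each start. It is printed in capitals on the strand that reads TGCCGC, plus for Snrpn and minus for Nap1l5.
Snrpn, chr7:60005184-60005213: tgcgcacattttTGCCGCaatgcaggggtc
Nap1l5, chr6:58907133-58907162: cagccattcactTGCCGCgagccgcgaagc
Nap1l5, chr6:58907082-58907111: gccgtcagcgttTGCCGCatcttcagacgc

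Of the 32 genes with such a window, 12 held the hexamer (37.5%), beside 13.1% of 27025 genes with a window. By window the shares were 26.5% of 49 and 11.6% of 32851, and the median number of CpG was 15 and 7, so the windows compared also differed in CpG. The 12 genes were Copg2, Grb10, Igf2, Mcts2, Meg3, Mest, Nap1l5, Nnat, Plagl1, Snrpn, Zdbf2 and Zim1. Methylation was not measured in the files used here.

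Of the 5 genes of the Snrpn-Ube3a cluster, Snrpn was the one that passed the test. Ube3a, a ubiquitin ligase expressed from the maternal copy in neurons, was at 53.1, 57.0 and 82.9 CPM in the controls and 40.9, 45.4 and 44.1 CPM in Kdm1a-ifKO. The groups did not overlap, but control replicate 3 lay far above the rest, and the difference did not pass the test (log2FC -0.57, 95% interval -1.01 to -0.12, adjusted p = 0.123 by edgeR). Without control replicate 3 the log2FC was -0.34 and passed it (0.00472). Without any other single library Ube3a did not pass it (0.0505 to 0.294 by edgeR). Snhg14, the paternal transcript that runs antisense through Ube3a and shares 1803 exonic bases with it, was at 56.1, 61.7 and 77.5 CPM and then 49.0, 50.8 and 49.0 CPM (log2FC -0.39, adjusted p = 0.0535). Its fall passed the test with DESeq2 (0.00329), without control replicate 1 (0.008) and without control replicate 3 (0.0256). It did not pass by edgeR without control replicate 2 (0.0599) or Kdm1a-ifKO replicate 1 (0.151), 2 (0.091) or 3 (0.15).

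Magel2, a regulator of ubiquitin ligases of the same cluster, went from 2.41, 2.68 and 2.26 CPM to 3.24, 3.81 and 3.49 CPM. The groups did not overlap, and the difference did not pass the test (log2FC 0.52, 95% interval 0.14 to 0.90, adjusted p = 0.0828 by edgeR). Ndn (necdin; log2FC -0.11, adjusted p = 0.257) and Mkrn3 (log2FC 0.29, adjusted p = 0.589) had overlapping groups. No loop had an anchor within 10 kb of Snrpn, Ndn, Magel2, Mkrn3 or Ube3a.

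Peg3, a zinc finger gene of the paternal copy, was at 302, 297 and 383 CPM in the controls and 247, 275 and 233 CPM in Kdm1a-ifKO. The groups did not overlap (log2FC -0.38, 95% interval -0.63 to -0.13, adjusted p = 0.0773 by edgeR). The difference passed the test with DESeq2 (0.000653) and without control replicate 2 (0.0341), control replicate 3 (0.0312) or Kdm1a-ifKO replicate 2 (0.0461). Peg3 did not pass the test by edgeR without control replicate 1 (0.0694), Kdm1a-ifKO replicate 1 (0.189) or Kdm1a-ifKO replicate 3 (0.172). Its neighbours Zim1 (log2FC -0.34, adjusted p = 0.103) and Usp29 (log2FC -0.13, adjusted p = 0.342) did not pass it. The Peg3 cluster had loops within itself: a loop of 9 PETs over 189.1 kb, the strongest of Peg3, joined an anchor in Peg3 to one in Usp29. A loop of 13 PETs over 277.1 kb joined Usp29 to a place 9579 bases from Zim1, and one of 8 PETs over 37.4 kb had an anchor in Zim1.

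Meg3, Rian and Mirg, the maternal noncoding RNAs of the Dlk1-Meg3 cluster, did not pass the test. Meg3 was at 5440, 5730 and 6160 CPM in the controls and 5070, 5700 and 4690 CPM in Kdm1a-ifKO. Its log2FC was -0.16 (adjusted p = 0.186 by edgeR, and 0.0293 without Kdm1a-ifKO replicate 2). Without any other single library Meg3 did not pass the test (0.141 to 0.498 by edgeR). The log2FC was -0.10 for Rian and -0.11 for Mirg. Dlk1, a transmembrane protein of the Notch ligand family, was at 12.7, 11.8 and 9.14 CPM and then 16.5, 11.5 and 5.24 CPM. Its Kdm1a-ifKO libraries lay on both sides of the controls (log2FC -0.02, 95% interval -1.17 to 1.13), an interval that leaves its direction unresolved.

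Peg10, derived from a retrotransposon, was at 21.1, 34.4 and 21.4 CPM in the controls and 40, 35.1 and 34.2 CPM in Kdm1a-ifKO. Control replicate 2 lay within the Kdm1a-ifKO range, and the difference passed the test only without that library among the single libraries left out (log2FC 0.77, adjusted p = 0.000134 by edgeR, against 0.51 and 0.203 with it). Nnat, a small membrane protein of neurons, was at 298, 329 and 272 CPM and then 253, 292 and 219 CPM, with overlapping groups (log2FC -0.24, adjusted p = 0.253, and 0.0435 without Kdm1a-ifKO replicate 2). Impact, a regulator of translation, was at 210, 238 and 235 CPM and then 208, 205 and 201 CPM. Its log2FC was -0.15 (adjusted p = 0.114 by edgeR, and 0.0396 without control replicate 1). Without any other single library, neither Nnat (0.302 to 0.44 by edgeR) nor Impact (0.18 to 0.302) passed the test.

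Narrow intervals marked several other genes. Rasgrf1, a Ras exchange factor of neurons, was at 754, 781 and 759 CPM in the controls and 819, 736 and 763 CPM in Kdm1a-ifKO (log2FC 0.02, 95% interval -0.10 to 0.13). The log2FC was 0.01 for Mest (-0.17 to 0.20), -0.04 for Copg2 (-0.15 to 0.07), -0.01 for Trappc9 (-0.13 to 0.11), -0.04 for Gnas (-0.19 to 0.11) and 0.04 for Grb10 (-0.10 to 0.19). For Igf2r it was 0.05 (-0.10 to 0.21), and for its antisense RNA Airn, which was near 1 CPM, it was close to 0 with a wide interval (-0.63 to 0.63). Sgce (0.15), Rtl1 (0.07), Zdbf2 (0.06), Ddc (0.13), Plagl1 (-0.07), Blcap (-0.12), H13 (-0.07) and Mcts2 (-0.14) did not pass the test either, and their groups overlapped. Mest and Copg2 share 912 exonic bases with each other, and Gnas shares 1469 with Gm20721 and 988 with Nespas. How reads in these bases were counted is not known, so the values of Mest, Copg2 and Gnas are uncertain despite their narrow intervals.

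Genes were grouped by the parental copy listed for each, which was not measured in this tissue. The 24 genes listed as paternally expressed included 4 that fell (16.7%, beside 2.82% of all tested genes) and none that rose (beside 6.04%). Their median log2FC was -0.05. The 4 are the falls described above, which left-out libraries removed. The 11 tested genes listed as maternally expressed included 1 that rose, Cdkn1c (9.09%), and none that fell, with a median of -0.10. These counts were not compared by a test, and the shares of all tested genes were not matched for level. Of the 6 tested noncoding RNAs, Peg13 passed the test (median log2FC -0.14). All 6 values were negative, as were 8548 of the 16799 tested genes, but that of Airn was -0.0015 and turned positive under 6 alternatives.

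Within 10 kb of a gene, 22 of the 40 genes had at least 1 loop anchor, with 145 loops in all. Among tested genes the share was 52.6% (20 of 38), beside 56.9% of 16758. Trappc9, a subunit of a trafficking complex, had the most loops (21, strongest 142 PETs). Peg13, inside it, had 6, of which 3 (14, 8 and 3 PETs) led towards Kcnk9 and 2 (9 and 10 PETs) towards another part of Trappc9. Impact had a loop of 69 PETs over 22.8 kb. Its near anchor lay between Impact and Osbpl1a, within 10 kb of each, and its far anchor lay within Osbpl1a. Osbpl1a, an oxysterol-binding protein, fell (log2FC -0.20, adjusted p = 0.0497 by edgeR). That fall was lost without any one library other than Kdm1a-ifKO replicate 2.

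**Figure D5:**
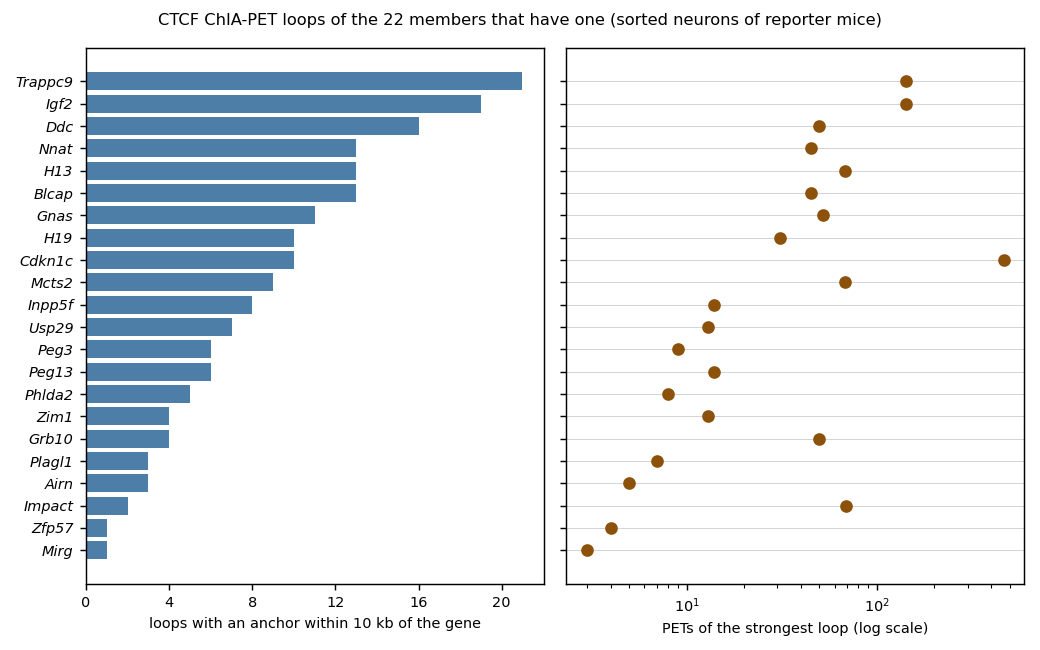
Number of loops with an anchor within 10 kb of each of the 22 genes that have one (bars) and PETs of its strongest loop (log axis) in the 1 ChIA-PET library. Trappc9 has the most loops with 21, Cdkn1c has the strongest with 464 PETs, and the 18 genes without a loop are not drawn.

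Other imprinted genes were described from a separate list of 48, of which 31 were tested. Of these, 1 passed the test (3.23%, beside 6.04% of all tested genes that rose and 8.85% either way). It was Klf14, a maternally expressed transcription factor of the Krüppel-like family, at chr6:30956023-30959078. Klf14 was not counted with Mest and Copg2 above, though it lies beyond Copg2 (chr6:30747554-30896794) on the same chromosome. It went from 3, 4 and 2 counts to 80, 69 and 64 counts (log2FC 4.46, SE 0.305, adjusted p = 8.33e-07 by edgeR), and left-out libraries moved the log2FC between 4.26 and 4.71. The number of these genes called was 4 without control replicate 3 and 3 without control replicate 1. The median log2FC of the 31 was -0.07, and 10 of them did not overlap between groups (32.3%, beside 30.0%).

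Of 27 genes that maintain imprints or DNA methylation, 24 were tested and 0 passed the test by edgeR or by DESeq2, with 6 at an unadjusted p under 0.05 (24.5% of all tested genes were). Of the partners of ZFP57, Trim28 had a log2FC of 0.10 (adjusted p = 0.283) and Setdb1 of -0.08 (0.469), and neither passed the test. Dnmt1, the maintenance DNA methyltransferase, was at 65.4, 60.5 and 61.9 CPM and then 55.8, 55.0 and 54.3 CPM (log2FC -0.19, adjusted p = 0.059). Zfp445, a zinc finger protein that acts beside ZFP57, was at 121 CPM in control replicate 3 and 72.7 and 61.7 CPM in the other controls (log2FC -0.44, adjusted p = 0.478). The number called was 1 when control replicate 2 was left out, and 2 when Kdm1a-ifKO replicate 2 was.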

How the data were processed

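Poly-A RNA of the hippocampus of male mice was sequenced single-end (3 Kdm1a-ifKO and 3 control libraries, 1 per mouse). The authors trimmed reads with cutadapt 1.18, aligned them with HISAT2 2.1.0 and counted reads per gene with HTSeq 0.11.1, and deposited raw counts. The strand and overlap settings of the counting were not given in the sources used here, so values of overlapping genes are uncertain. The loop table deposited by the authors gives a PET count for each CTCF loop in 1 library (27786 loops, each with at least 3 PETs). The histone mark, Kdm1a and 4C samples were not used here. Counts were normalized by TMM, filtered with filterByExpr and tested with edgeR 4.0.16 (R 4.3.3) with genotype as the only factor. The script was tested on simulated data. In them edgeR called 46 of 66 genes changed by an absolute log2FC of 0.5 (69.7%), and smaller changes were not simulated. DESeq2 1.42.0, which the study used, was an alternative. Gene positions came from GENCODE M21 on GRCm38 (48435 of 48795 identifiers matched), and sequences from RefSeq GRCm38.p6. An exact permutation test of 3 against 3 libraries cannot go below p = 0.1, so single values were not tested that way. The members and lists were chosen with earlier results of these data known. Named were all 40 genes, genes of the 2 further lists that passed the test (at most 5 each) with Trim28, Setdb1, Dnmt1 and Zfp445, Kdm1a, the nearest tested genes beside Zfp57, genes that passed the test at far loop anchors, markers, and annotated genes overlapping a named gene. Klf14 and Igf2os entered by these rules. Alternatives were other normalizations and filters, left-out libraries, a replicate block, fold thresholds and other loop rules.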

Additional observations from a re-analysis of the deposited data

How the results depend on the processing

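Zfp57 and Cdkn1c passed the test under all 12 alternatives set out at the start; for Zfp57 the adjusted p ranged from 7.51e-07 to 0.0168. Over 37 genes other than Zfp57 and 12 alternatives, 407 of 444 comparisons kept their side of the threshold, 23 lost and 14 gained the call, and 24, in 12 genes that did not pass the test, changed sign. The 4 falls became 1 with upper-quartile normalization, 7 with no filter on low counts, and 0 with an absolute log2FC over 0.5 or over 1, and 0 to 6 without single libraries. The 2 rises became 1 with a log2FC over 1 and 2 to 3 without single libraries. The 1 call among other imprinted genes became 3 with DESeq2, 2 with DESeq2 size factors in edgeR, 4 with upper-quartile normalization, 6 with no filter, 2 with at least 10 counts in all and 1 to 4 without single libraries. The 0 calls among maintenance genes became 4 with no filter and 0 to 2 without single libraries. The cause was not tested. The 145 loops became 83 at 5 PETs or more, 37 at 10 or more, 86 where the anchor overlapped the gene body and 87 within 10 kb of the gene start. Without control replicate 3 and Kdm1a-ifKO replicate 2 together, an alternative chosen after seeing the data, there were 2 rises and 8 falls, 4 other imprinted genes and 1 maintenance gene called, and Zfp57 was at log2FC 0.53. Same-numbered libraries did not deviate together (correlations -0.033, -0.091 and -0.148), beside -0.092 to 0.162 for the other pairs. With 3 libraries per group, such correlations cannot settle whether the numbers pair the mice. With the replicate block there were 2 rises and 3 falls. Of the 4 genes that fell, Nap1l5 alone kept the call (adjusted p = 0.0447 by edgeR). Snrpn (0.0649), Peg13 (0.0513) and Inpp5f (0.107) lost it, and Ube3a (0.0375) and Nnat (0.0322) gained it. In that fit 2 other imprinted genes were called, and Zfp57 had a log2FC of 0.56 (adjusted p = 0.00767). Genes at a few counts, such as H19 and Phlda2, are limited by depth.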
